A study of Homo sapiens with 8 samples.

Results

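The genes described here are 37 genes of cholesterol and fatty acid synthesis and of their control by the sterol regulatory element-binding proteins (SREBPs), out of 60624 genes counted in A549 cells. They were chosen by name, with earlier results of these data known. Their Ensembl identifiers were mapped to symbols with GENCODE release 44 on GRCh38. By role they were 5 regulators of the pathway, 7 genes of the mevalonate branch, 11 genes of the path from squalene to cholesterol, 2 genes of intracellular cholesterol transport, 9 genes of fatty acid and glycerolipid synthesis, and 3 genes switched on by the liver X receptors (LXRs). All 37 were among the 18661 genes with enough counts to be tested.

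A549 cells are an established line from a human lung adenocarcinoma, grown here in RPMI medium with fetal bovine serum. Indisulam is a sulfonamide that causes degradation of the splicing factor RBM39, and SPHINX31 inhibits SRPK1, a kinase that phosphorylates splicing factors rich in serine and arginine. RNA was sequenced from 4 groups of these cells, untreated, treated with indisulam, treated with SPHINX31 and treated with both (combination). The study used these libraries to ask whether more splicing errors could account for the joint effect of the agents, which gene counts do not measure. Each group had 2 libraries, which are technical replicates, so that p-values measure the spread between libraries and not that between separate treatments. The study's methods give 0.5 μM indisulam and 5 μM SPHINX31 for 24 h, whereas the deposited labels give 2 μM indisulam and 18 h. The methods give the labels' dose and time for a separate experiment in pancreatic cancer cells. The dose and time used for these libraries are taken as uncertain.

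The libraries held between 51727369 and 63186989 counts on genes. Levels are given as CPM, the counts of a gene relative to its library total after adjustment of the totals with the TMM method, and a gene is called higher or lower where edgeR's quasi-likelihood test gave a Benjamini-Hochberg adjusted p under 0.05 over all tested genes. Markers of epithelium were high, with KRT8 between 3474 and 4103 CPM and EPCAM between 25.4 and 33.6 CPM, and AKR1B10, abundant in A549 cells, was between 4827 and 7059 CPM. Of the markers of other cell types, PTPRC, CD3E, CDH5, VWF, COL1A2, DCN and PDGFRB stayed at or below 0.297 CPM in every library, while CD14 (6.83 to 9.76 CPM), COL1A1 (3.23 to 4.65 CPM) and PECAM1 (1.45 to 2.36 CPM) were detected in every group. RBM39, whose protein is the target of indisulam, measured 153.9 and 156.8 CPM in untreated cells, 361.3 and 360.3 with indisulam, 166.1 and 184.2 with SPHINX31, and 372.7 and 391.5 with the combination. SRPK1, whose kinase activity SPHINX31 blocks, measured 127.5 and 129.6, 103.9 and 100.8, 118.2 and 131.3, and 109.6 and 109.0 CPM in the same order. RBM39 transcripts rose by 1.22 ± 0.055 on the log2 scale with indisulam (adjusted p = 5.4e-09) and those of SRPK1 fell by 0.33 ± 0.055 (adjusted p = 3.4e-04). These are RNA levels, which do not report the loss of RBM39 protein or the inhibition of SRPK1.

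SREBPs are made as membrane proteins of the endoplasmic reticulum. When sterols are low, the escort protein SCAP carries them to the Golgi, where the site-1 and site-2 proteases (MBTPS1, MBTPS2) release the part that enters the nucleus. When sterols are high, INSIG proteins hold SCAP in the endoplasmic reticulum, and oxysterols activate the LXRs, which switch on cholesterol export. The SREBF2 product mainly drives genes of cholesterol synthesis and the SREBF1 product mainly genes of fatty acid synthesis, and INSIG1 is itself a target of both.

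Per kilobase of annotated exon, the most abundant of these genes in untreated cells was SCD, the desaturase that makes monounsaturated fatty acids, at 255.7 CPM per kb, followed by ACLY, which makes cytosolic acetyl-CoA from citrate, at 129.2 CPM per kb. The desaturases FADS2 and FADS1 followed with 44.8 and 43.9 CPM per kb, next to each other and not distinguishable in order, since annotated exon length enters the value. The gene of lowest level was ABCA1, the transporter that exports cholesterol to lipid-poor apolipoproteins, at 0.188 CPM per kb. CYP51A1, lanosterol demethylase, was next at 0.803 CPM per kb, a value that can lack reads. It shares 2844 bp of exons with another gene model on the same strand, where reads can be counted as ambiguous. SCD and ABCA1 also stood first and last in the other 3 groups.

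With SPHINX31, those of the 37 genes that passed the test all rose. Of the 37 genes, 22 rose and 0 fell against untreated cells, where 4.94% of all tested genes rose and 3.67% fell. The median log2 fold change was 0.32 over the 37 genes and -0.01 over all tested genes. By role, 6 of 7 mevalonate genes, 6 of 11 sterol genes, both transport genes, 6 of 9 fatty acid genes, 2 of 5 regulators and 0 of 3 LXR targets rose. Both SPHINX31 libraries lay above both untreated libraries for 26 genes, below them for 3, and overlapped them for 8, where over all tested genes 26.9% lay above and 27.1% below.

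**Figure D1:**
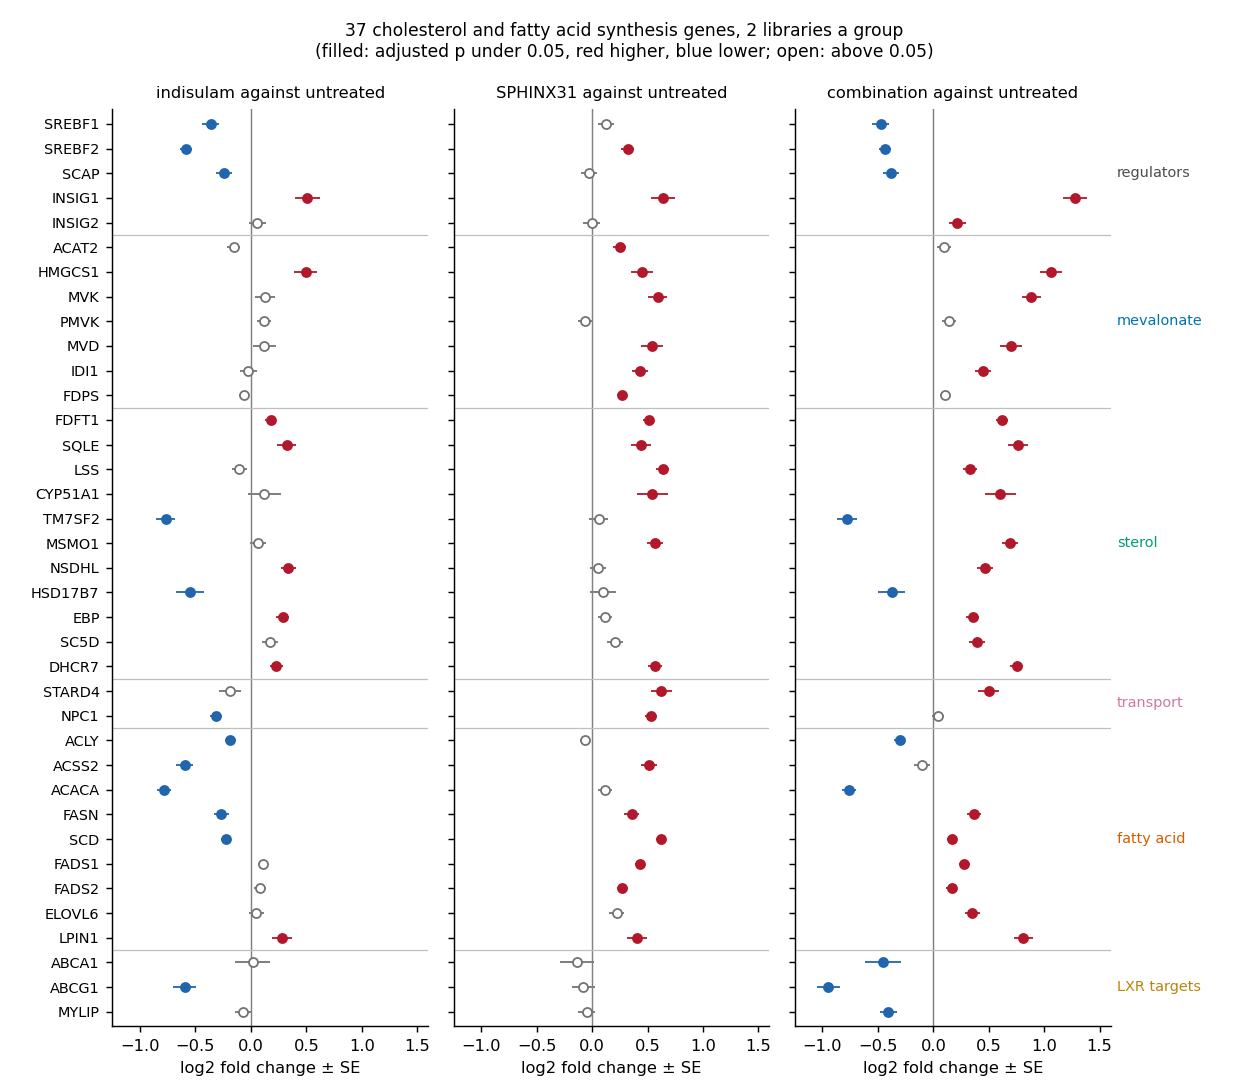
Log2 fold change with its standard error for each of the 37 genes (rows, grouped by role) with indisulam, SPHINX31 or the combination against untreated cells, 2 libraries a group. With SPHINX31 the 22 called genes (filled) all lie to the right of 0, whereas indisulam shows 8 called genes to the right and 12 to the left.

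INSIG1, which retains the SREBP escort in the endoplasmic reticulum, was among the genes that rose most with SPHINX31. It measured 35.4 and 34.4 CPM in untreated cells, 49.9 and 49.5 with indisulam, 45.9 and 62.7 with SPHINX31, and 90.2 and 79.3 with the combination. The untreated libraries were the lowest, those with a single agent lay between, and those of the combination lay above all others. With SPHINX31 it rose by 0.64 ± 0.11 on the log2 scale (SE, adjusted p = 0.0030), and by 0.39 without SPHINX31 replicate 2, the higher of that pair, which is below the value of LSS.

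LSS, which closes the sterol ring system to give lanosterol, measured 34.7 and 32.6 CPM in untreated cells and 51.2 and 53.4 CPM with SPHINX31. The libraries did not overlap, and LSS rose by 0.64 ± 0.063 on the log2 scale (SE, adjusted p = 6.9e-05). The enzymes further down the path, DHCR7, which takes the final reductive step from 7-dehydrocholesterol, and MSMO1, a sterol C4-methyl oxidase, each rose by 0.57 on the log2 scale (SE 0.061 and 0.072), and FDFT1, squalene synthase, rose by 0.51 ± 0.051. SQLE, squalene epoxidase, rose by 0.44 ± 0.089 and CYP51A1 by 0.54 ± 0.14. The other 5 sterol genes had log2 fold changes between 0.06 and 0.20 and did not pass the test, namely TM7SF2, NSDHL, HSD17B7, EBP and SC5D.

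In the mevalonate branch, MVK, mevalonate kinase, measured 18.96 and 16.52 CPM in untreated cells and 24.6 and 28.9 CPM with SPHINX31. All libraries with SPHINX31 lay above the untreated ones, and MVK rose by 0.59 ± 0.086 on the log2 scale (SE, adjusted p = 0.0010). MVD, which makes isopentenyl diphosphate, rose by 0.54, HMGCS1, which makes HMG-CoA, by 0.45, IDI1, the isomerase, by 0.43, FDPS, which makes farnesyl diphosphate, by 0.27, and ACAT2, which joins acetyl-CoA units, by 0.25. PMVK, the kinase between MVK and MVD, was the exception, with -0.06 ± 0.066 (SE, adjusted p = 0.60).

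Among fatty acid genes, SCD measured 1370 and 1313 CPM in untreated cells and 2018 and 2096 CPM with SPHINX31. The log2 fold change of 0.62 ± 0.045 had the smallest adjusted p of the 37 genes in this comparison (7.1e-06). ACSS2, which activates acetate, rose by 0.51, FADS1 by 0.43, LPIN1, a phosphatidate phosphatase, by 0.41, FASN, fatty acid synthase, by 0.36 and FADS2 by 0.27. The other 3 genes did not pass the test, with -0.06 ± 0.047 for ACLY, 0.12 ± 0.063 for ACACA, acetyl-CoA carboxylase, and 0.22 ± 0.066 for ELOVL6, a fatty acid elongase (adjusted p = 0.055).

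Of the transport genes, STARD4, a cytosolic sterol carrier, rose by 0.62 ± 0.095 and NPC1, which exports cholesterol from the lysosome, by 0.53 ± 0.054. SREBF2 rose by 0.32 ± 0.055 (SE, adjusted p = 0.0031). SREBF1 did not pass the test (0.12 ± 0.076, adjusted p = 0.34), so that transcripts of only 1 of these transcription factors were called.

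For 10 of the 22 genes the call was lost when 1 library was left out (adjusted p between 0.0571 and 0.176). Without untreated replicate 2, 13 genes remained called and SREBF2, ACAT2, HMGCS1, MVD, SQLE, CYP51A1, FASN, FADS2 and LPIN1 were not, and without untreated replicate 1, ACAT2, HMGCS1, FDPS, SQLE, CYP51A1 and LPIN1 were not. Leaving out SPHINX31 replicate 2 lost ACAT2, HMGCS1, CYP51A1 and LPIN1 and brought the log2 fold changes of HMGCS1, SQLE and LPIN1 to 0.21, 0.25 and 0.26, and leaving out SPHINX31 replicate 1 lost CYP51A1. Between the libraries of a group, the median absolute log2 difference of the 37 genes was 0.094 with SPHINX31 and between 0.054 and 0.079 in the other groups. Scaling by total counts alone gave 23 higher and 0 lower for these genes, while over all tested genes it gave 1341 higher and 515 lower in place of 921 and 685.

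**Figure D2:**
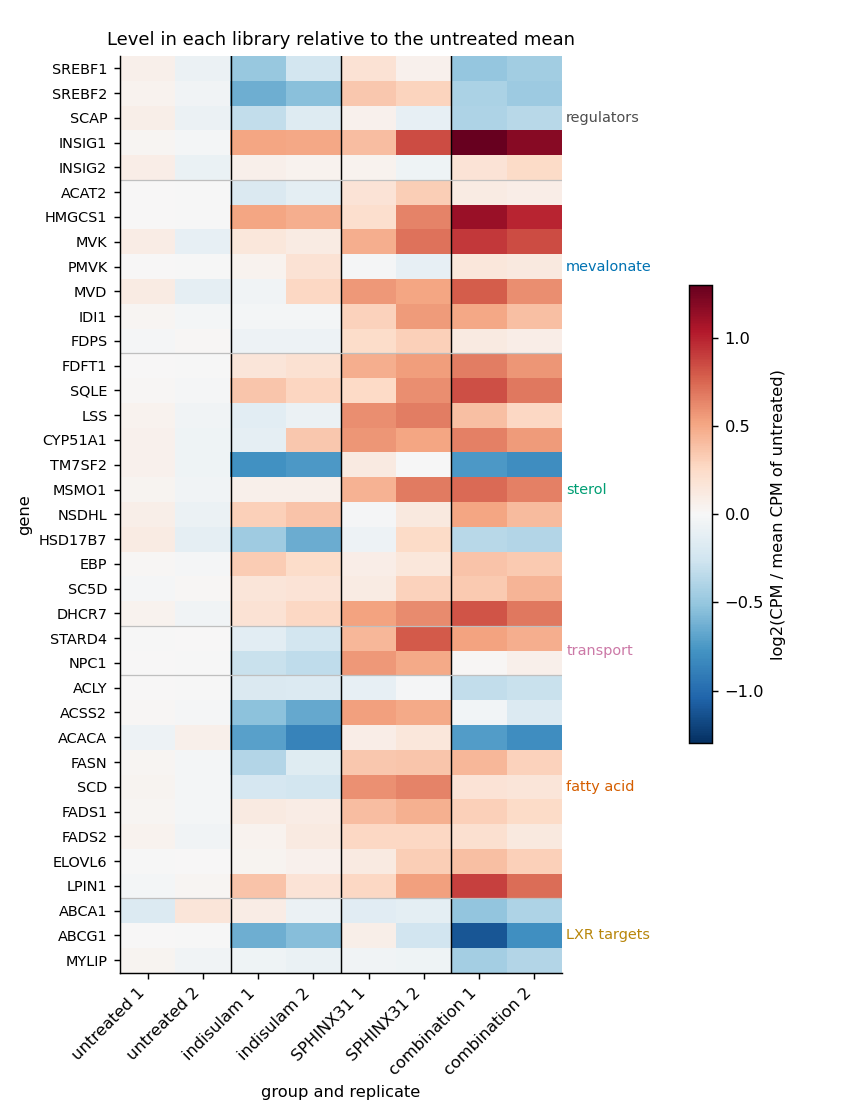
Level of each of the 37 genes (rows, grouped by role) in each of the 8 libraries (columns), as log2 of the CPM relative to the mean of the untreated libraries. SPHINX31 replicate 2 is redder than replicate 1 for INSIG1, HMGCS1, SQLE and STARD4, and the regulators SREBF1, SREBF2 and SCAP are blue in the 4 libraries with indisulam.

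The promoters of the 37 genes, called or not, were read for motifs known from this pathway. RefSeq (GRCh38.p14) gave a promoter for 32 of the 37 genes, of which the 250 bases before the start were searched on both strands. FDFT1, SQLE, FASN, FADS2 and ABCG1 had none. The letters TCACNCCAC, a form of the sterol regulatory element that SREBPs bind, were found in the promoter of 1 gene, SREBF2 (3.13% of 32), against 0.883% of 35116 RefSeq promoters. The CCAAT box, bound by the factor NF-Y that acts beside SREBPs, was found in 19 (59.4%), against 32.0% of all promoters and 34.7% of the 12448 promoters matched to tested genes. The E-box CACGTG, which reads the same on both strands, was found in 4 (12.5%), namely SCAP, INSIG1, ABCA1 and SC5D, against 6.35% of all promoters and 8.59% of those matched to tested genes. A CCAAT box was present in 12 of the 18 genes with a promoter that rose with SPHINX31 and in 7 of the 14 that were not called. These are matches of letters and not shown to be bound sites.

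The stretches below are from 6 genes that rose with SPHINX31, chosen so that each of the 5 roles with such genes is seen, with the sterol element and the CCAAT boxes (CCAAT, or ATTGG where the box lies on the other strand) in capitals. Each is 120 bases long, ends before the transcription start and is written 5′ to 3′ on the strand of the gene. SREBF2 holds a sterol element and a CCAAT box close to each other, and MVD and MSMO1 hold 3 CCAAT boxes each in the stretch shown. No matches overlap in these stretches.
SREBF2, chr22:41832926-41833045, + strand: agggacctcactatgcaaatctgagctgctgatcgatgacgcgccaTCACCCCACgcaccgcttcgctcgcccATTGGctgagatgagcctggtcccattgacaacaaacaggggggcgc
INSIG1, chr7:155297648-155297767, + strand: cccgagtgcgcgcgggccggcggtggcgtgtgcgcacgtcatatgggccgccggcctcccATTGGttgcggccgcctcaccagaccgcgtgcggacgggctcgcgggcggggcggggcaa
MVD, chr16:88663162-88663281, - strand: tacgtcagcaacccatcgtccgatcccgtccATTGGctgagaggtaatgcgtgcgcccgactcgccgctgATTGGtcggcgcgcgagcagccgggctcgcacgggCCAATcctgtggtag
MSMO1, chr4:165327526-165327645, + strand: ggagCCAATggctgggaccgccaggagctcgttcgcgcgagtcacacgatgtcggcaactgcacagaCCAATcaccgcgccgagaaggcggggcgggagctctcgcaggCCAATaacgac
STARD4, chr5:111512621-111512740, - strand: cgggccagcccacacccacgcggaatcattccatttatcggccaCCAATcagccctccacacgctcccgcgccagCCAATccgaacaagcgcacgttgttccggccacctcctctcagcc
SCD, chr10:100346983-100347102, + strand: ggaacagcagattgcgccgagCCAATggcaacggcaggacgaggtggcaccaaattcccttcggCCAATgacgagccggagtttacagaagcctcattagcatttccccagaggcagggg

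With indisulam, genes passed the test in both directions, both among the 37 and over all tested genes. Of the 37 genes, 8 rose and 12 fell against untreated cells, where 20.1% of all tested genes rose and 23.5% fell. Whether these counts differ from the shares of all tested genes was not tested. The median log2 fold change was 0.02 over the 37 genes and 0.00 over all tested genes. The sterol genes had 5 higher and 2 lower, the fatty acid genes 1 higher and 5 lower, and the regulators 1 higher and 3 lower.

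The transcripts that encode the transcription factors and their escort fell. SREBF2 measured 167.6 and 156.6 CPM in untreated cells, 104.6 and 111.4 with indisulam, 206.6 and 197.9 with SPHINX31, and 122.3 and 116.9 with the combination. The 4 groups did not overlap, and both groups with indisulam lay below both groups without it. SREBF2 changed by -0.59 ± 0.055 on the log2 scale with indisulam (SE, adjusted p = 2.4e-06). SREBF1 fell by 0.36 ± 0.076 on the log2 scale (SE, adjusted p = 0.0018) and SCAP by 0.25 ± 0.072 (adjusted p = 0.014). INSIG1 rose by 0.51 ± 0.11 (adjusted p = 0.0020), and INSIG2, its constitutively expressed relative, had a log2 fold change of 0.06 ± 0.076.

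The decrease of largest size was that of ACACA, the enzyme that makes malonyl-CoA for fatty acid synthesis. It measured 180.4 and 197.2 CPM in untreated cells, 115.7 and 103.3 with indisulam, 200 and 209 with SPHINX31, and 114.4 and 108.0 with the combination. Levels with indisulam and with the combination overlapped, and both lay below the other groups. With indisulam the change of ACACA was -0.79 ± 0.064 on the log2 scale (SE, adjusted p = 6.7e-07). ACSS2 fell by 0.60, FASN by 0.27, SCD by 0.23 and ACLY by 0.19 on the log2 scale, and LPIN1 rose by 0.28, while FADS1, FADS2 and ELOVL6 did not pass the test.

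Sterol enzymes divided. TM7SF2, a sterol C14 reductase, measured 11.28 and 10.41 CPM in untreated cells and 6.28 and 6.46 CPM with indisulam, with no overlap between the groups (-0.77 ± 0.088 on the log2 scale, adjusted p = 1.3e-05). HSD17B7, a 3-keto sterol reductase, fell by 0.55 ± 0.12 on the log2 scale, and NPC1 by 0.31 ± 0.055. The genes that rose were NSDHL (0.34 ± 0.070), which acts in removal of the C4 methyl groups, SQLE (0.32 ± 0.090), EBP (0.29 ± 0.062), a sterol isomerase, DHCR7 (0.23 ± 0.061) and FDFT1 (0.18 ± 0.052). HMGCS1 was the only mevalonate gene called in either direction, at 55.1 and 54.6 CPM in untreated cells and 78.1 and 76.3 CPM with indisulam (log2 fold change 0.49 ± 0.10, adjusted p = 0.0015).

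Of the LXR targets, ABCG1, an exporter of cholesterol, measured 40.03 and 39.93 CPM in untreated cells, 25.7 and 27.2 with indisulam, 42.0 and 33.7 with SPHINX31, and 18.4 and 23.0 with the combination. The SPHINX31 libraries lay on either side of the untreated ones, and the groups with indisulam lay below both. ABCG1 fell by 0.60 ± 0.10 on the log2 scale with indisulam (SE, adjusted p = 4.4e-04). ABCA1 (0.02 ± 0.16) and MYLIP (-0.07 ± 0.076), which encodes a ligase that marks lipoprotein receptors for degradation, did not pass the test.

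For 7 of the 20 calls with indisulam the adjusted p rose above 0.05, to between 0.0532 and 0.162, when 1 library was left out. These were SCAP, FASN and LPIN1 without indisulam replicate 1 (FASN -0.16 and LPIN1 0.18), FDFT1 without indisulam replicate 2, SCAP, FDFT1, ACLY and LPIN1 without untreated replicate 1, and FDFT1, SQLE, DHCR7 and LPIN1 without untreated replicate 2.

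The genes differed in structure along with their direction in indisulam, given here as a description without a test. The canonical transcripts of the 8 genes that rose had a median of 8.5 exons (5 to 21), those of the 12 that fell 19 exons (6 to 56), and those of the 17 not called 9 exons (4 to 50). Over the 37 genes, Spearman's rho between exon number and log2 fold change was -0.42 with indisulam and -0.11 with SPHINX31. Median GC content was 46.8% for the genes that rose, 54.4% for those that fell and 45.5% for the others. The genes share the same libraries in each fold change, and the part of exon number or GC content in the fold changes was not tested beyond a correction for GC content, under which 12 genes rose and 13 fell, where 24% of all tested genes rose and 24.7% fell. Of the 20 calls with indisulam, that correction lost ACLY (-0.12, adjusted p = 0.053).

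With the combination, 22 of the 37 genes rose and 10 fell against untreated cells, where 23.8% of all tested genes rose and 26.3% fell. The median log2 fold change was 0.28 over the 37 genes and 0.00 over all tested genes. Both libraries of the combination lay above both untreated libraries for 26 genes and below them for 11, where 37.6% of all tested genes lay above and 38.2% below. By role, 9 of 11 sterol genes, 4 of 7 mevalonate genes and 6 of 9 fatty acid genes rose, 3 of 5 regulators fell, and all 3 LXR targets fell.

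INSIG1 and HMGCS1 showed the 2 largest increases, by 1.28 ± 0.11 (SE, adjusted p = 5.8e-07) and 1.06 ± 0.10 (adjusted p = 1.7e-06) on the log2 scale. HMGCS1 measured 119.7 and 108.9 CPM with the combination, against 63.7 and 86.0 CPM with SPHINX31. MVK rose by 0.88, LPIN1 by 0.81, SQLE by 0.76, DHCR7 by 0.75, MVD by 0.70, MSMO1 by 0.69, FDFT1 by 0.62 and CYP51A1 by 0.60 on the log2 scale. These 10 genes had the largest increases, and 9 of them encode enzymes. STARD4 (0.50), NSDHL (0.47), IDI1 (0.45), SC5D, a sterol desaturase (0.39), FASN (0.37), EBP and ELOVL6 (0.35 each), LSS (0.33), FADS1 (0.28), INSIG2 (0.21), SCD and FADS2 (0.17 each) rose by less.

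The decreases of largest size with the combination were those of ABCG1 (-0.95 ± 0.10), TM7SF2 (-0.78 ± 0.088) and ACACA (-0.76 ± 0.064). SREBF1 fell by 0.48, SREBF2 by 0.44 and SCAP by 0.38, so that transcripts of the SREBPs and of their escort were below untreated levels where those of 20 enzymes and carriers were above them. MYLIP (-0.41 ± 0.077, adjusted p = 6.4e-04), ABCA1 (-0.46 ± 0.16, adjusted p = 0.031), HSD17B7 (-0.38) and ACLY (-0.30) also fell. ABCA1 measured 1.88 and 2.38 CPM in untreated cells and 1.49 and 1.61 CPM with the combination, and its level limits the precision of its fold change.

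Among the 32 calls, 5 were lost when 1 library was left out. ABCA1 and HSD17B7 were lost without either combination library, HSD17B7 also without untreated replicate 1, FADS2 without combination replicate 1, INSIG2 without combination replicate 2, and INSIG2 (0.13), ABCA1 (-0.28), SCD and FADS2 without untreated replicate 2, with adjusted p between 0.0671 and 0.290. A correction for GC content lost SCD (0.10, adjusted p = 0.086), DESeq2 lost INSIG2 (adjusted p = 0.054) and ABCA1 (adjusted p = 0.13), and scaling by total counts alone lost ABCA1 (adjusted p = 0.054).

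**Figure D3:**
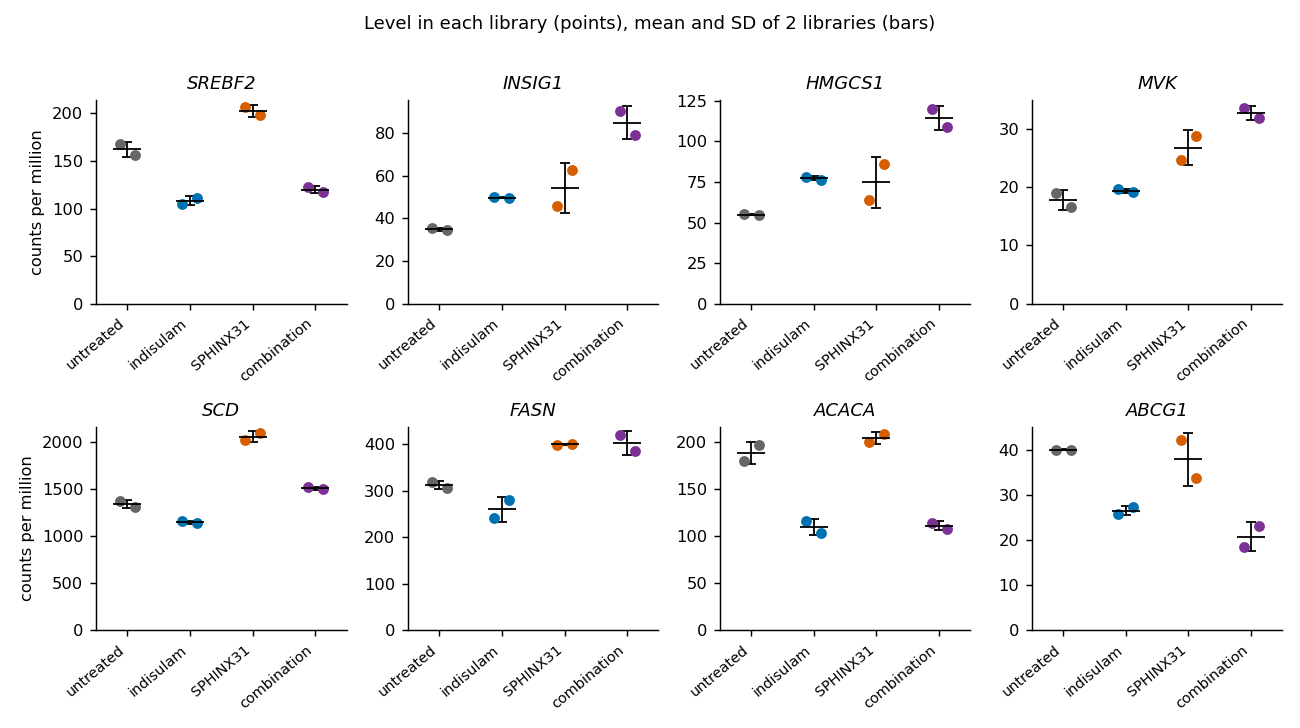
CPM of 8 genes in each library (points) with the mean and SD of the 2 libraries of a group (bars), each axis starting at 0. INSIG1, HMGCS1 and MVK are highest with the combination, SREBF2, ACACA and ABCG1 are lowest in the groups with indisulam, and SCD is highest with SPHINX31 alone.

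Comparison of the combination with indisulam alone asks what SPHINX31 adds where indisulam is present, and uses no library of the comparison of SPHINX31 with untreated cells. Of the 37 genes, 19 rose and 1 fell, where 3.17% of all tested genes rose and 4.32% fell. The median log2 fold change was 0.25 over the 37 genes and 0.00 over all tested genes. The increases of largest size were those of INSIG1 (0.77 ± 0.11), MVK (0.76 ± 0.085), STARD4 (0.69 ± 0.097), FASN (0.63 ± 0.066) and MSMO1 (0.63 ± 0.072). MYLIP fell by 0.34 ± 0.078 (SE, adjusted p = 0.019), while ABCG1 (-0.35, adjusted p = 0.066) and ABCA1 (-0.47, adjusted p = 0.10) did not pass the test.

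The genes that rose with SPHINX31 in these separate libraries were largely the same. Of the 22 genes that rose with SPHINX31 alone, 18 (81.8%) also rose over indisulam, and these were 94.7% of the 19. Pearson's r between the log2 fold changes over the 37 genes was 0.89 and Spearman's rho 0.87, and 33 genes had the same sign. The matching overlap and correlation over all tested genes were not computed. Whether such values are particular to these genes was therefore not tested. FASN measured 317.6 and 306.4 CPM in untreated cells, 240.4 and 278.9 with indisulam, 399.0 and 399.3 with SPHINX31, and 420.1 and 384.6 with the combination. It was therefore low with indisulam and at a similar level in both groups with SPHINX31. In contrast, FADS1 rose by 0.43 ± 0.047 with SPHINX31 alone and by 0.17 ± 0.047 over indisulam, and its interaction of -0.26 was not called (adjusted p = 0.35).

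Without combination replicate 1, 13 of the 20 calls over indisulam remained, and ACAT2, HMGCS1, MVD, SQLE, FADS1, ELOVL6 and MYLIP were lost. ACAT2, FADS1, ELOVL6 and MYLIP were also lost without combination replicate 2 and without indisulam replicate 1, FADS1 and MYLIP without indisulam replicate 2, and FADS1 without either untreated library, with adjusted p between 0.0504 and 0.182. Scaling by total counts alone gave 23 higher and 1 lower, and over all tested genes 942 higher and 498 lower in place of 592 and 807. FADS1 was also not called with the replicate number as a block (adjusted p = 0.061) or with only the groups compared in the fit (adjusted p = 0.058).

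**Figure D4:**
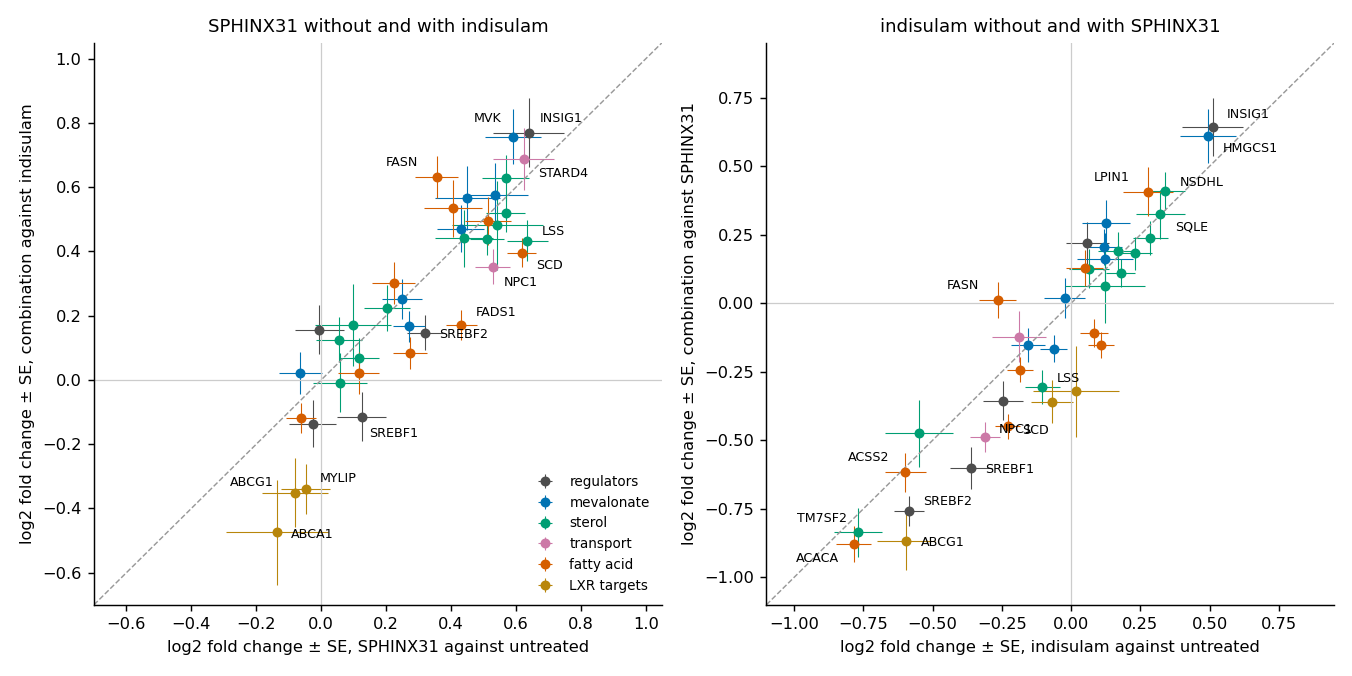
Log2 fold changes with their standard errors for the 37 genes, coloured by role, for SPHINX31 without (x axis) and with (y axis) indisulam on the left, and for indisulam without (x axis) and with (y axis) SPHINX31 on the right. Each panel sets comparisons with no library in common against each other, the dashed line marks equal values, and Pearson's r was 0.89 on the left and 0.94 on the right.

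The combination against SPHINX31 alone gives the effect of indisulam where SPHINX31 is present. Of the 37 genes, 11 rose and 15 fell, where 23.4% of all tested genes rose and 26.5% fell. The median log2 fold change was -0.11 over the 37 genes and 0.00 over all tested genes. ACACA (-0.88 ± 0.064), ABCG1 (-0.87 ± 0.11), TM7SF2 (-0.84 ± 0.088), SREBF2 (-0.76 ± 0.055) and ACSS2 (-0.62 ± 0.071) had the decreases of largest size, and INSIG1 (0.64 ± 0.11) and HMGCS1 (0.61 ± 0.10) the increases of largest size. Indisulam against untreated cells uses other libraries. In both comparisons 7 genes rose (87.5% of 8 and 63.6% of 11) and 11 fell (91.7% of 12 and 73.3% of 15). Pearson's r was 0.94 and Spearman's rho 0.93. The matching overlap and correlation over all tested genes were not computed here either.

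Of these 26 calls, 9 were lost when 1 library was left out, with adjusted p between 0.0553 and 0.251. Without SPHINX31 replicate 1 these were MVK (0.19), SQLE (0.17), SC5D (0.11) and DHCR7, and without SPHINX31 replicate 2, INSIG2, PMVK, FDPS, HSD17B7 (-0.30) and FADS1, while SQLE was then 0.52 and SC5D 0.30. Without combination replicate 1 MVK, PMVK, SQLE and DHCR7 were lost, without combination replicate 2 INSIG2, PMVK, FDPS, SC5D and FADS1, and without either untreated library SC5D. SC5D was also lost with DESeq2 (adjusted p = 0.058) and without a filter on low counts (adjusted p = 0.052), and FADS1 with only the groups compared (adjusted p = 0.070).

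The interaction, which compares the effect of the combination with the sum of the effects of the single agents on the log2 scale, was not called for any of the 37 genes by edgeR's quasi-likelihood test. The share of all tested genes called was 0%. The interaction estimates lay between -0.34 and 0.28 with standard errors between 0.064 and 0.23, and the adjusted p between 0.35 and 1.00. An unadjusted p under 0.05 was found for 9 of the 37 genes and for 8.49% of all tested genes. DESeq2 gave an adjusted p for 32 of the 37 genes and called 0 of these, and it called 31 of all tested genes. For INSIG1 the single agents summed to 1.15 on the log2 scale, and the combination gave 1.28.

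The 3 comparisons with untreated cells share the untreated libraries, so that their log2 fold changes are set side by side without counting genes in common. MVK had 0.13 with indisulam, 0.59 with SPHINX31 and 0.88 with the combination, and MSMO1 had 0.06, 0.57 and 0.69 in the same order. For LSS the values were -0.10, 0.64 and 0.33. Each of these enzymes passed the test with SPHINX31 and with the combination, and not with indisulam. NPC1 had -0.31, 0.53 and 0.04, ACSS2 -0.60, 0.51 and -0.10, and SREBF2 -0.59, 0.32 and -0.44. These genes fell with indisulam and rose with SPHINX31, and with the combination SREBF2 was below untreated levels while NPC1 and ACSS2 did not pass the test. PMVK had 0.12, -0.06 and 0.14 and passed in none of them.

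SCD shows the opposite directions of the single agents. It measured 1155 and 1135 CPM with indisulam and 1517 and 1497 CPM with the combination, between the 1370 and 1313 CPM of untreated cells and the 2018 and 2096 CPM of SPHINX31. Its log2 fold changes were -0.23 ± 0.045 with indisulam, 0.62 ± 0.045 with SPHINX31 and 0.17 ± 0.045 with the combination (adjusted p = 0.0011, 7.1e-06 and 0.0071).

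A further 30 genes of lipid metabolism, listed as neighbours of the pathway and not among the 37, were all tested. With indisulam 4 rose and 11 fell, with SPHINX31 5 rose and 2 fell, with the combination 5 rose and 13 fell, and over indisulam the combination gave 4 higher and 8 lower. These counts stand beside the shares of all tested genes given above for each comparison, 20.1% and 23.5%, 4.94% and 3.67%, 23.8% and 26.3%, and 3.17% and 4.32%. The median log2 fold changes of the list were -0.03, 0.04, -0.05 and -0.03. With SPHINX31 the count that rose was 5 of 30, against 22 of the 37 genes. The difference between the lists was not tested, and both lists were chosen with earlier results of these data known. Scaling by total counts alone gave 10 higher and 13 lower with the combination, beside 5331 and 4304 of all 18661 tested genes. Over indisulam it gave 4 higher and 5 lower, beside 942 and 498 of all tested genes. The correction for GC content gave 8 higher and 12 lower with indisulam, beside 4478 and 4616 of all tested genes. With the combination that correction gave 10 higher and 14 lower, beside 4913 and 5200.

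Both proteases that release SREBPs had lower transcript levels with indisulam. MBTPS2 measured 106.0 and 103.4 CPM in untreated cells, 65.0 and 64.3 with indisulam, 108.8 and 111.6 with SPHINX31, and 57.6 and 60.2 with the combination, a log2 fold change of -0.70 ± 0.050 with indisulam (adjusted p = 2.2e-07). MBTPS1 fell by 0.38 ± 0.047. The decreases of largest size in the list were those of LPCAT3, a lysophospholipid acyltransferase (-1.20 ± 0.059 with indisulam, -1.73 ± 0.061 with the combination), and GGPS1, which makes geranylgeranyl diphosphate (-0.99 ± 0.097 and -1.40 ± 0.099). The increases of largest size with indisulam were those of HACD3, a dehydratase of fatty acid elongation (0.45), ERG28, a scaffold of sterol enzymes (0.31), and NPC2, the partner of NPC1 in the lysosome (0.25), and with the combination those of NPC2 (0.75), MID1IP1, which activates acetyl-CoA carboxylase (0.52), and ERG28 (0.52).

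Exons shared with other genes could affect some of these counts, since reads there can be counted as ambiguous and left out. The strand setting of the counting was not given in the sources used here. On the opposite strand, ACAT2 shares 454 bp of exons with TCP1, a chaperonin subunit with a mean of 19560 counts a library against 2219 for ACAT2. FADS1 and FADS2 share 490 bp on opposite strands, NPC1 shares 619 bp with RMC1, SREBF1 556 bp with RAI1 and MVK 225 bp with MMAB. CYP51A1 shares 2844 bp on the same strand with an overlapping gene model at 0 counts, and its own mean of 242 counts a library can lack reads counted as ambiguous. EBP likewise shares 644 bp on the same strand with a gene model at a mean of 0.875 counts.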

How the data were processed

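Stranded libraries of polyadenylated RNA from A549 cells were sequenced by the authors. The deposited values are raw counts of reads per Ensembl gene, with reads left unassigned given apart. The submitters' processing notes name HISAT2 2.2.1, HTSeq and GRCh38, and the strand setting and annotation release are not given in the sources used here. Between 83.0% and 86.0% of the recorded reads of a library were on genes, and the others stayed out of library sizes and tests.

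Counts were filtered with filterByExpr and tested with edgeR 4.0.16 in R 4.3.3 (TMM factors, quasi-likelihood test, 1 model of all 8 libraries, Benjamini-Hochberg adjustment over 18661 genes, threshold 0.05). Standard errors are those of the log2 fold change. They cover counting error and a spread between libraries estimated in the model of all 8 libraries. Replicates differed by more than sampling noise (chi-square per degree of freedom 6.60 to 10.7). Alternatives were RLE factors, total counts alone, DESeq2 1.42.0, other filters, only the groups compared, a replicate block and leaving out each library. An exchanged block and a correction over 50 bins of GC content were chosen after seeing the data. Simulated data with known changes were used to test the procedure. The 37 genes and the list of 30 were chosen with earlier results of these data known. All 37 are named, with fuller values for those called against untreated cells that had the larger changes. From the list of 30, the 3 genes with the largest change in each direction are named for indisulam and the combination, and MBTPS1 was added for its role.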

Additional observations from a re-analysis of the deposited data

Results flagged for a closer look

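Reads outside the gene counts were looked at beside the untreated libraries. Reads that aligned outside annotated features made up a mean of 4.99% of the recorded reads with indisulam and 5.37% with the combination, against 3.94% and 4.34% in the untreated libraries. Ambiguous reads, which overlap more than 1 gene, made up 5.95% with indisulam, against 4.88% and 5.22%, while the combination libraries were at 4.99% and 4.96%, within that range, and the SPHINX31 libraries at 5.94% and 4.82%. Reads without a unique alignment made up 5.67% with indisulam and 5.66% with the combination, against 5.41% and 5.48%. In the groups given with a mean, both libraries lay above both untreated libraries. These reads carry no gene name and were not assigned to the 37 genes.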

How the results depend on the processing

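Of 143 gene and comparison pairs followed, 120 were called. Over 2431 values under the alternatives, 2261 kept their side of the threshold, 92 lost the call and 78 gained a call. Direction was compared only for the 120 called pairs, of which 0 changed direction. Leaving out 1 library at a time, the number of the 37 genes called ranged from 16 to 23 with indisulam, 13 to 23 with SPHINX31, 28 to 33 with the combination, 13 to 23 for the combination against indisulam and 21 to 26 against SPHINX31. For the list of 30 genes it ranged from 3 to 7 with SPHINX31 and from 5 to 12 for the combination against indisulam. A group left with a single library is assumed to vary like the others. Over all tested genes, the number called in every comparison of groups also moved below and above that of the fit of all 8 libraries. Whether the calls of the 37 genes changed more than those of all tested genes was not tested. Without a filter on low counts, the interaction was called for 1 of the 30 genes and for 94 of the 34831 genes then tested. The cause of these changes, including the smaller number of libraries, was not tested. The replicate numbers did not pair the libraries (correlations of same-numbered deviations over 9330 genes from -0.587 to 0.464). With the replicate block, 20, 22, 32, 19 and 26 of the 37 genes were called in the same order of comparisons, and the block lost the call of FADS1 over indisulam and no other. Exchanging the numbers of the indisulam libraries, a choice made once the data had been seen, gave 22, 24, 34, 25 and 29. Over all tested genes the main fit called 8148, 1606, 9337, 1399 and 9314. The replicate block called 7851, 1330, 9077, 1169 and 9074 of these, and the exchanged block 8952, 2630, 10014, 2252 and 10005. Calls over all tested genes thus also fell with the block and rose with the exchange. Technical replicates, 2 per group, limit all p-values to the spread between libraries, and genes of low count, such as ABCA1, have the widest errors.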
